A study of Mus musculus with 42 samples.

Results

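The 10 genes followed here encode transcription factors or regulators of the immediate early response: the Fos family members Fos, Fosb, Fosl1 and Fosl2, the Jun family members Jun, Junb and Jund, and Egr1, Atf3 and Ier2. They were taken by name from the table of 21674 genes, with no threshold on measured values although earlier results of these data were known, and all 10 were found there. The study asked which RNA changes follow low and disturbed flow in the mouse carotid artery, whether recruited blood cells are needed for them, and what the splicing factor Rbfox2 contributes. To lower flow, branches of the left carotid were ligated, the contralateral carotid served as the high-flow vessel, and RNA was flushed from the intima, the endothelial lining with whatever adheres to it.

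At 48 hr, male C57BL/6J mice from Jackson gave 3 pools each of low-flow, high-flow and sham-operated intima, each pool made of 3 to 5 flushes. In further C57BL/6J mice, 2 low-flow libraries each were made after anti-GPIba, which depletes platelets, after anti-Gr1, which depletes neutrophils, after clodronate liposomes, which deplete macrophages, and after the controls IgG and PBS liposomes. Anti-Gr1 and its IgG control were given the day before ligation, and anti-GPIba and its IgG control and the liposomes at ligation. The labels do not say which of these IgG controls the IgG libraries are, and they serve here as the control of both antibodies. High-flow libraries, 2 each, exist for IgG and PBS liposomes only. At 7 d after surgery, EC-KO mice of both sexes carried Rbfox2 lox/lox alleles and the Rosa26-mTmG reporter together with Cdh5(PAC)-CreERT2, and their littermate controls had the same alleles and reporter but no Cre. These gave 3 low-flow and 2 high-flow libraries per genotype. Since Cre is driven by an endothelial promoter, other cells in a flush keep their Rbfox2. Rbfox2 itself was at 3.27, 5.73 and 2.74 FPKM in the low-flow controls and at 1.09, 0.169 and 0.622 FPKM in the low-flow EC-KO libraries. At high flow it was at 3.66 and 3.84 FPKM in controls and at 0.791 and 1.05 FPKM in EC-KO. Cultured aortic endothelial cells added 4 libraries of 1 conditionally immortalised TetOn-SV40 line and 3 libraries of primary cells, sorted for eGFP after 5 d of culture or for Cd31 and Icam2 after 7 d.

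Immediate early genes are switched on within minutes of a stimulus from factors already present in the cell, mainly through MAP kinases acting on serum response factor, ternary complex factors and CREB-like proteins. Their transcripts decay quickly, so that a level in tissue is a snapshot that handling can also move. Fos and Jun proteins pair through leucine zippers to form AP-1, and the composition of the pair sets its activity: Fos and Fosb carry strong activation domains, Fosl1 and Fosl2 lack them, and Junb and Jund often restrain what Jun activates. Egr1 is a zinc-finger factor induced in vessel walls by injury and by changes in shear stress. Atf3 is a stress-induced partner of the AP-1 proteins, and Ier2 is a small nuclear protein induced along with them.

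The start of a gene is where those inputs converge, and the upstream sequences of Fos, Fosb and Atf3 are shown because these 3 members, with Egr1, stood out most in a single EC-KO library described further on. Junb and Fosl2, which were highest in that library by smaller ratios, are not printed. Of the 10 members, 7 had an entry in the RefSeq promoter table (build GRCm38.p6); Fosl1, Egr1 and Ier2 had none. Each sequence runs 5′ to 3′ on the gene's strand over the 250 bases before the gene start. Capitals mark TGACG, the first 5 letters of the cyclic AMP response element TGACGTCA, on either strand. The Fos sequence is chr12:85473640-85473889 on the plus strand, that of Fosb is chr7:19310046-19310295 and that of Atf3 is chr1:191183334-191183583, both on the minus strand.
Fos: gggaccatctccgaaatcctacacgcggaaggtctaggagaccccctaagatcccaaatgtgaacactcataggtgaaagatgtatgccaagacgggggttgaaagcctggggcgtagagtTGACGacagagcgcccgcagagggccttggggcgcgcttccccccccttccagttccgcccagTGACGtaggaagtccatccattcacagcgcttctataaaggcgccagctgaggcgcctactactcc
Fosb: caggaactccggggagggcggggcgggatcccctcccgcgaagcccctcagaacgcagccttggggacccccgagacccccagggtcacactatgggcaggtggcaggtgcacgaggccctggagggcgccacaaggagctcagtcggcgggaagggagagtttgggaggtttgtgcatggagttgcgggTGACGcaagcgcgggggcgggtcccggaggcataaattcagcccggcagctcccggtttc
Atf3: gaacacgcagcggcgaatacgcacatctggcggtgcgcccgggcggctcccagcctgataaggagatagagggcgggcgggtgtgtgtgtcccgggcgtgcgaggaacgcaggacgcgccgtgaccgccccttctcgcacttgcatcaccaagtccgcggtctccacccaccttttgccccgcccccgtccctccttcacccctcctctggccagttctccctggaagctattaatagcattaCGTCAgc
In these 250 bases, TGACG stood once or more in 17.8% of 32851 promoters. It stood 2 times in Fos, beginning 129 and 66 bases before the gene start, and 1 time each in Fosb, Junb and Atf3, beginning 60, 106 and 7 bases before it. Fosl2, Jun and Jund had none. The full TGACGTCA (1.55% of promoters), the AP-1 element TGANTCA (6.75%) and the CArG box bound by serum response factor (1.47%) were found in none of the 7. Both strands were searched, TGACG lies within TGACGTCA, and TGACG was searched after the longer motif had given no match. A match is a description of letters and no match covers this window only.

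On the mm9 build used for the deposited table, Fos lies at chr12:86814840-86818223 (plus strand), Fosl1 at chr19:5447703-5455945 (plus) and Fosl2 at chr5:32438845-32460204 (plus). Jun lies at chr4:94715725-94718913 (minus), Fosb at chr7:19888070-19895394 (minus) and Atf3 at chr1:192994175-193007219 (minus). Chromosome 8 holds Junb at 87500811-87502617 (minus), Jund at 73221638-73224515 (plus) and Ier2 at 87185230-87186751 (minus).

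Levels are given as FPKM, fragment counts scaled by effective transcript length and library size, computed from the deposited counts and divided by the TMM factor of the library within its set (9 untreated pools, 14 depletion and control libraries, or 10 libraries of 7 d). Cultured libraries were not rescaled. Gene totals were 4064477 to 6794904 counts in the untreated pools, 12286104 to 19035957 in the depletion libraries, 10318685 to 18633538 at 7 d and 4989843 to 16394043 in culture. The untreated pools came from an earlier run with 100 bp reads and the other carotid sets from 150 bp runs, and levels were not comparable between them. PBS liposome low-flow intima was sequenced in both, and the 150 bp libraries exceeded the 100 bp library by 4.83 on the log2 scale for Jund, 4.66 for Junb, 2.42 for Jun and 2.09 for Ier2, against -1.51 for both Fosl2 and Fosb. Transcripts of Jund, Junb and Ier2 are 62.7%, 62.6% and 60.9% GC, and over all genes the median of this log2 ratio went from 0.02 in the tenth with the lowest GC to 0.74 in the tenth with the highest. The part of GC content in the members' ratios was not tested. All tests below were made within a set, and only the search for genes with a like pattern goes across sets. Where groups are said not to overlap, this describes the few values shown. The share of all genes without overlap was not counted. Marker sums and the levels of Rbfox2, Klf4 and Actb are FPKM without TMM scaling.

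Low flow also changed what a flush contained. The summed FPKM of 13 macrophage markers was 2156 to 3492 in untreated low-flow pools and 71.6 to 177 in high-flow pools. Neutrophil markers (9 genes) summed to 503 to 1205 against 18.1 to 39.5, smooth muscle markers (6 genes) to 1444 to 2698 against 316 to 379, and proliferation markers (6 genes) to 117 to 245 against 4.48 to 12.7. Endothelial markers (11 genes) summed to 1772 to 2207 in low flow and 2979 to 3484 in high flow. With TMM scaling the endothelial sums overlapped, at 1968 to 3523 and 2671 to 2936, while the other lists named here kept their order. The macrophage sum exceeded the endothelial sum in low-flow pools a and b, and the smooth muscle sum exceeded it in pool c. None of these markers was at 0 in all pools of a group. Erythroid and adipocyte markers went the other way, with sums of 865 to 3756 in low flow against 6912 to 12758 in high flow and of 57.5 to 139 against 478 to 4163. In such bulk RNA, a change in the number of cells of a type and a change in RNA per cell cannot be told apart, and the part of cell makeup in the results below was not tested. The flow-responsive factor Klf4 was at 0.777 to 4.72 FPKM in untreated low flow and 55.1 to 66.2 FPKM in high flow.

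In untreated arteries Fosl2 rose and Jund fell at low flow, against high flow and against sham. Of 9 members tested between low and high flow, 1 rose (Fosl2) and 2 fell (Jund and Ier2) by edgeR's quasi-likelihood test at an adjusted p under 0.05. Over all genes, 46.2% passed in this comparison, 23.6% higher and 22.6% lower, so that 3 of 9 is no larger a share than the background. The median log2 fold change of the 9 was 0.49, against -0.07 over all genes.

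**Figure D1:**
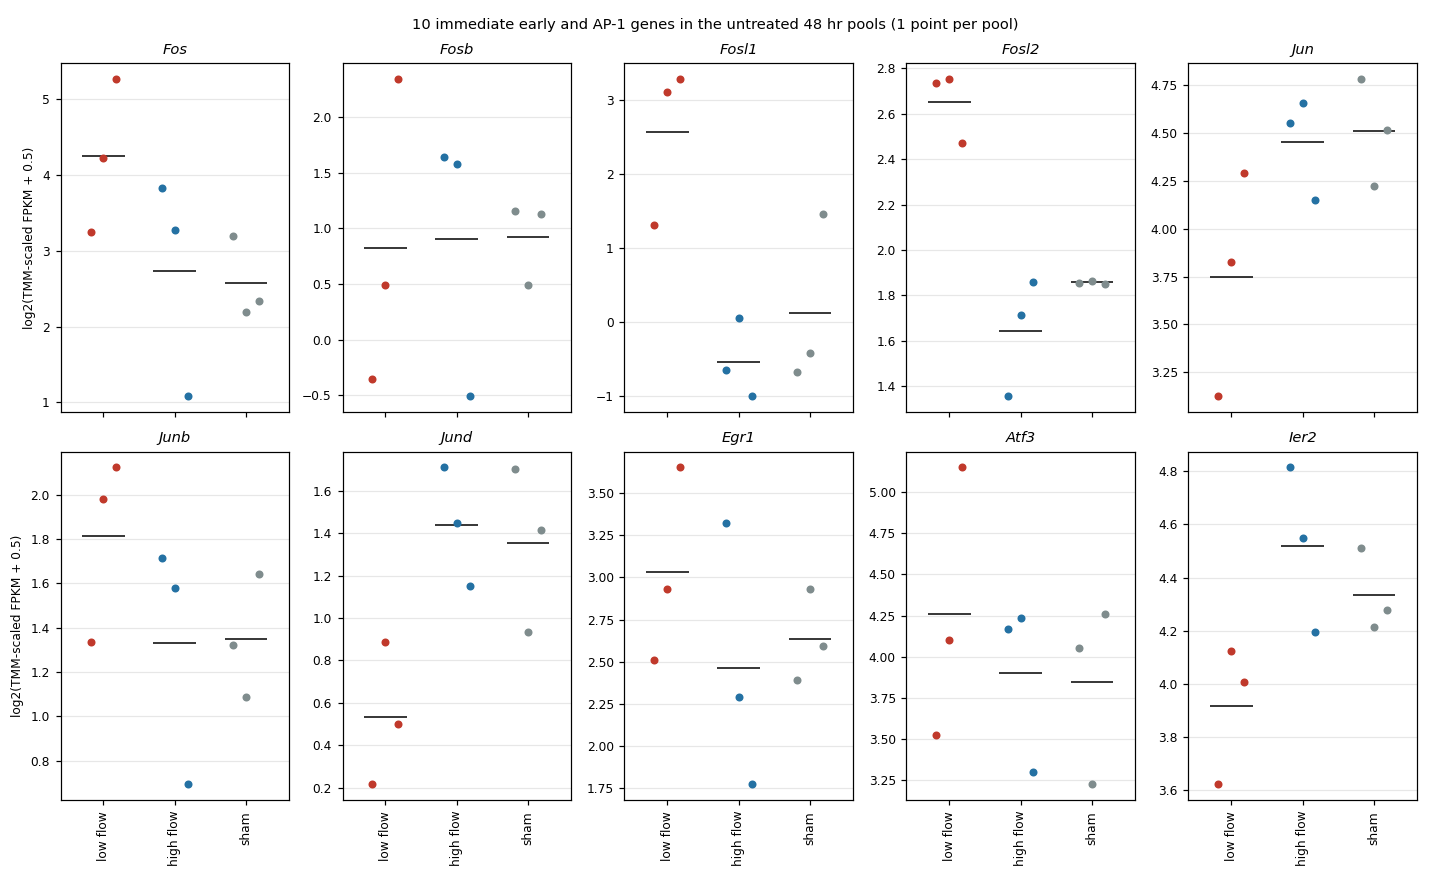
Levels of the 10 genes in each untreated 48 hr pool, as log2(TMM-scaled FPKM + 0.5); each point is 1 pool (red low flow, blue high flow, grey sham, 3 pools each), the bar is the group mean, and each panel has its own axis. Fosl1 and Fosl2 lie higher and Jund and Ier2 lower in all 3 low-flow pools than in all 3 high-flow pools, while Fosb and Atf3 groups overlap.

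Fosl2, a Fos protein without a strong activation domain, was at 6.15, 6.24 and 5.04 FPKM in low-flow pools a, b and c. The letters name pools within a group, and no pool is shared between groups. In high flow it was at 2.06, 2.78 and 3.12 FPKM, and in sham at 3.12, 3.14 and 3.11 FPKM. All low-flow pools lay above all others. The log2 fold change was 1.11 ± 0.21 (SE, n = 3 and 3, edgeR adjusted p = 0.0016) against high flow and 0.85 ± 0.17 against sham (adjusted p = 0.0061). This call rested on the scaling. Low-flow pools a and b had TMM factors of 0.569 and 0.549, against 1.12 to 1.27 in the other 7, with Actb at 60592 and 57853 FPKM in a and b and at 2955 to 21437 FPKM elsewhere. With library totals in place of TMM, the median of all genes moved to -0.69 and -0.71 in the comparisons with high flow and sham, the Fosl2 groups overlapped, and its fold changes were 0.43 and 0.14 (adjusted p = 0.491 and 0.845).

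Fosl1, which is strongly induced by growth factors and marks proliferating and invading cells, was close to absent in high flow. It was at 1.99, 8.14 and 9.22 FPKM in low flow and at 0.135, 0.532 and 0 FPKM in high flow. The groups did not overlap with either scaling. Summed over pools this was 135 counts against 7, a ratio of 26.4 (95% interval 12.5 to 66.8, counting error only). Fosl1 fell below the count filter of this comparison and so was not among the 9 tested, and without the filter its log2 fold change was 4.58 ± 0.58 (adjusted p = 2.5e-08). In sham it was at 0.125, 0.247 and 2.23 FPKM, and the fold change of low flow over sham was 2.79 ± 0.81 (adjusted p = 0.0254), with sham pool c above low-flow pool a. Sham pool c also had the highest macrophage marker sum of the sham pools, 658 against 220.3 and 219.5, and the highest proliferation marker sum, 127 against 35.9 and 12.9. Without it the fold change was 4.97 (adjusted p = 0.0032). The fold change missed the threshold without sham pool a or b or low-flow pool b or c (highest adjusted p = 0.0785).

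Fos, the founding member of the family, was at 9.02, 18.3 and 38.1 FPKM in low flow, at 13.7, 9.16 and 1.62 FPKM in high flow and at 8.63, 4.06 and 4.56 FPKM in sham. Low flow lay above sham in all pools and overlapped high flow. It rose against sham by 1.91 ± 0.50 on the log2 scale (adjusted p = 0.0172), and the difference from high flow, 1.44 ± 0.61, missed the threshold (adjusted p = 0.0749). Unscaled levels of low flow and sham overlapped, although the call was kept in the fit with library totals.

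Jund, the Jun protein that is present at rest and restrains growth, moved the other way. It was at 0.662, 1.35 and 0.916 FPKM in low flow, at 2.77, 2.23 and 1.72 FPKM in high flow and at 2.76, 1.41 and 2.17 FPKM in sham. Low-flow pools were lowest whichever scaling was used. These levels rest on few counts per pool. For scale, the PBS liposome low-flow library read at 100 bp held 24 Jund counts at 1.65 FPKM. It fell by 1.25 ± 0.36 against high flow (log2, adjusted p = 0.0159) and by 1.19 ± 0.37 against sham (adjusted p = 0.0333). Both calls were lost without low-flow pool a, that against high flow also without high-flow pool a, and that against sham also without low-flow pool c or sham pool a or c. Without low-flow pool a the adjusted p was 0.0731 against high flow and 0.122 against sham, and DESeq2 did not call the difference from sham (adjusted p = 0.071).

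Ier2 was at 11.8, 17 and 15.6 FPKM in low flow, at 27.6, 22.9 and 17.8 FPKM in high flow and at 22.3, 18.1 and 18.9 FPKM in sham. The low-flow pools were the lowest in both comparisons. It fell against high flow by 0.64 ± 0.22 on the log2 scale (adjusted p = 0.0372), a call that was lost under 6 of 11 alternative settings, and the difference of -0.46 ± 0.19 from sham missed the threshold (adjusted p = 0.0815). Jun, the main Fos partner, was at 8.24, 13.7 and 19.1 FPKM in low flow against 22.9, 24.7 and 17.2 FPKM in high flow and 27, 18.2 and 22.4 FPKM in sham. Its low-flow pools overlapped both groups, and the adjusted p was 0.0715 and 0.0671. Without TMM scaling all its low-flow pools lay below all sham pools. Both differences passed in the fit with library totals, a scale that moved the median of all genes as given above.

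Fosb, Junb, Egr1 and Atf3 overlapped between the 3 groups, with adjusted p between 0.223 and 0.817 for low flow against high flow and sham. Fosb was at 0.285, 0.903 and 4.57 FPKM in low flow and at 2.61, 2.48 and 0.205 FPKM in high flow. Fosb and Junb against high flow, and Junb and Egr1 against sham, changed the sign of their uncalled difference between TMM and library totals, a change of scale that moved the median of all genes as given above. In low flow, pool c had the highest Fos, Fosb, Fosl1, Jun, Junb, Egr1 and Atf3, and in high flow pool c had the lowest Fos, Fosb, Fosl1, Jun, Junb, Jund, Egr1, Atf3 and Ier2. Several members were thus highest or lowest in the same pool. Against sham, 4 of the 10 members tested passed, 3 higher (Fos, Fosl1 and Fosl2) and 1 lower (Jund), beside 40.3% of all genes (20.6% higher and 19.7% lower).

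High flow and sham differed in none of the 9 members tested, nor in any of 11030 genes (0% called), with edgeR. The unadjusted p was below 0.05 for 0 members and 868 genes. By DESeq2, 101 genes passed.

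The IgG and PBS liposome arms repeated the flow comparison in treated mice with deeper libraries. In both arms the low-flow and the high-flow libraries belong to different sequencing runs, and the part of run and that of flow cannot be told apart. Under IgG, 6 of 10 members passed, 5 higher (Fos, Fosl1, Junb, Egr1 and Atf3) and 1 lower (Jund), beside 40.5% of all genes (22.8% higher, 17.7% lower). Under PBS liposomes, 3 of 10 passed, Fosl2 and Junb higher and Jund lower, beside 35% of all genes (19.6% higher, 15.5% lower). The median log2 fold change of the members was 1.67 and 1.30, against 0.07 and 0.06 over all genes. Over both arms the macrophage sum was 1380.1 to 2373 in low flow against 102 to 327 in high flow, the smooth muscle sum 1829 to 3619 against 259 to 513 and the proliferation sum 33.8 to 267 against 1.58 to 90.7. The endothelial sum was 2040 to 2218 in low flow against 5056 to 5118 in high flow under IgG. Under PBS liposomes it was 1889 to 1938 against 3347 to 4228. With TMM scaling it was also lower in low flow without overlap in both arms. The part of cell makeup in the member differences was not tested.

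Fos was at 263 and 27.2 FPKM in low-flow IgG libraries 1 and 2 and at 4.95 and 3.26 FPKM in high flow. Both low-flow libraries lay above both high-flow libraries, although they differed from each other more than the lower of them differed from high flow. The log2 fold change was 5.15 ± 1.12 (n = 2 and 2, adjusted p = 0.0052), and 2.74 without low-flow replicate 1. Under PBS liposomes it was at 37.9 and 69.1 FPKM against 4.49 and 11.6 FPKM, again without overlap, and the fold change of 2.73 ± 1.00 just missed the threshold (adjusted p = 0.0529).

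Fosl1 was at 22.3 and 39.1 FPKM in low flow and at 0.0528 and 0.00447 FPKM in high flow under IgG. That was 1775 counts against 1, a ratio of 1221 (95% interval 219 to 48260.2, counting error only). The fitted log2 fold change was 9.97 ± 2.69 (adjusted p = 0.0136), a value that depends on the prior count at so low a level. The call was lost without either high-flow library. Under PBS liposomes Fosl1 was at 38.4 and 19.1 FPKM against 0.0505 and 2.3 FPKM, which was 1436 counts against 53, a ratio of 23.6 (17.9 to 31.6). The fitted change of 4.59 ± 1.77 did not pass (adjusted p = 0.064). High-flow PBS replicate 2, which held nearly all of those 53 counts, also had a proliferation marker sum of 90.7 against 1.58 in replicate 1.

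Junb, which competes with Jun for Fos partners, was at 236 and 126 FPKM in low flow and at 68.7 and 44.7 FPKM in high flow under IgG. Under PBS liposomes it was at 339 and 267 FPKM against 60.7 and 155 FPKM. It rose by 1.67 ± 0.41 (adjusted p = 0.0094) and 1.49 ± 0.41 (adjusted p = 0.0170) on the log2 scale, without overlap in either arm. Jund fell in the same libraries, from 200.5 and 252 FPKM in high flow to 86 and 74.6 FPKM in low flow under IgG, and from 83.7 and 120.4 FPKM to 50.5 and 49.7 FPKM under PBS liposomes. Its log2 fold changes were -1.49 ± 0.25 (adjusted p = 0.0016) and -1.03 ± 0.24 (adjusted p = 0.0084). In the tenth of genes with the highest GC the median fold change was -0.22 under IgG and -0.05 under PBS liposomes, and the part of GC content was not tested. Under PBS liposomes the Junb call was lost without low-flow or high-flow replicate 1 and in the fit to the 2 groups alone, and the Jund call without low-flow or high-flow replicate 2. Under IgG the Jund call was kept under all 10 alternatives run.

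Egr1 was at 204 and 41.3 FPKM in low flow and at 27.2 and 18.9 FPKM in high flow under IgG, and Atf3 was at 168 and 50.2 FPKM against 18.4 and 49.5 FPKM. Neither pair overlapped, although low-flow replicate 2 of Atf3 lay only just above high-flow replicate 2. Egr1 rose by 2.41 ± 0.69 (adjusted p = 0.0173) and Atf3 by 1.68 ± 0.56 (adjusted p = 0.0325). The calls of both, and that of Junb, were lost without low-flow IgG replicate 1, the library with the highest Fos of the arm: without it the log2 fold changes were 0.85, 0.57 and 1.16 (adjusted p = 0.277, 0.42 and 0.0724). The Egr1 call was also lost without either high-flow library, that of Atf3 without high-flow replicate 1 and in the fit to the 2 groups alone, and that of Junb without high-flow replicate 2. Under PBS liposomes Egr1 was at 59.9 and 62.6 FPKM against 28.3 and 42.7 FPKM and Atf3 at 55.5 and 46.7 FPKM against 16.7 and 30.4 FPKM, each without overlap and without passing the test (adjusted p = 0.374 and 0.136).

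Fosl2 rose under PBS liposomes, from 1.92 and 1.63 FPKM in high flow to 5.73 and 4.62 FPKM in low flow (log2 fold change 1.54 ± 0.40, adjusted p = 0.0135). This call was lost without low-flow replicate 1 or either high-flow library (highest adjusted p = 0.071). Under IgG it was at 5.84 and 5.98 FPKM against 2.44 and 3.67 FPKM, with a fold change of 0.95 ± 0.40 that missed the threshold (adjusted p = 0.0746). Fosb was at 7.6 and 0.713 FPKM in low flow against 2.5 and 0.107 FPKM in high flow under IgG, where the groups overlapped. Under PBS liposomes it was at 0.405 and 0.739 FPKM against 0 and 0.0576 FPKM, 68 counts against 3, a ratio of 19.7 (6.47 to 98.0), with an adjusted p of 0.0694. Jun was high in every library, at 88.8 to 200.4 FPKM, and passed in neither arm (adjusted p = 0.115 and 0.944). Ier2 was at 197 and 134 FPKM in low flow against 126 and 90.4 FPKM in high flow under IgG and passed in neither arm.

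**Figure D2:**
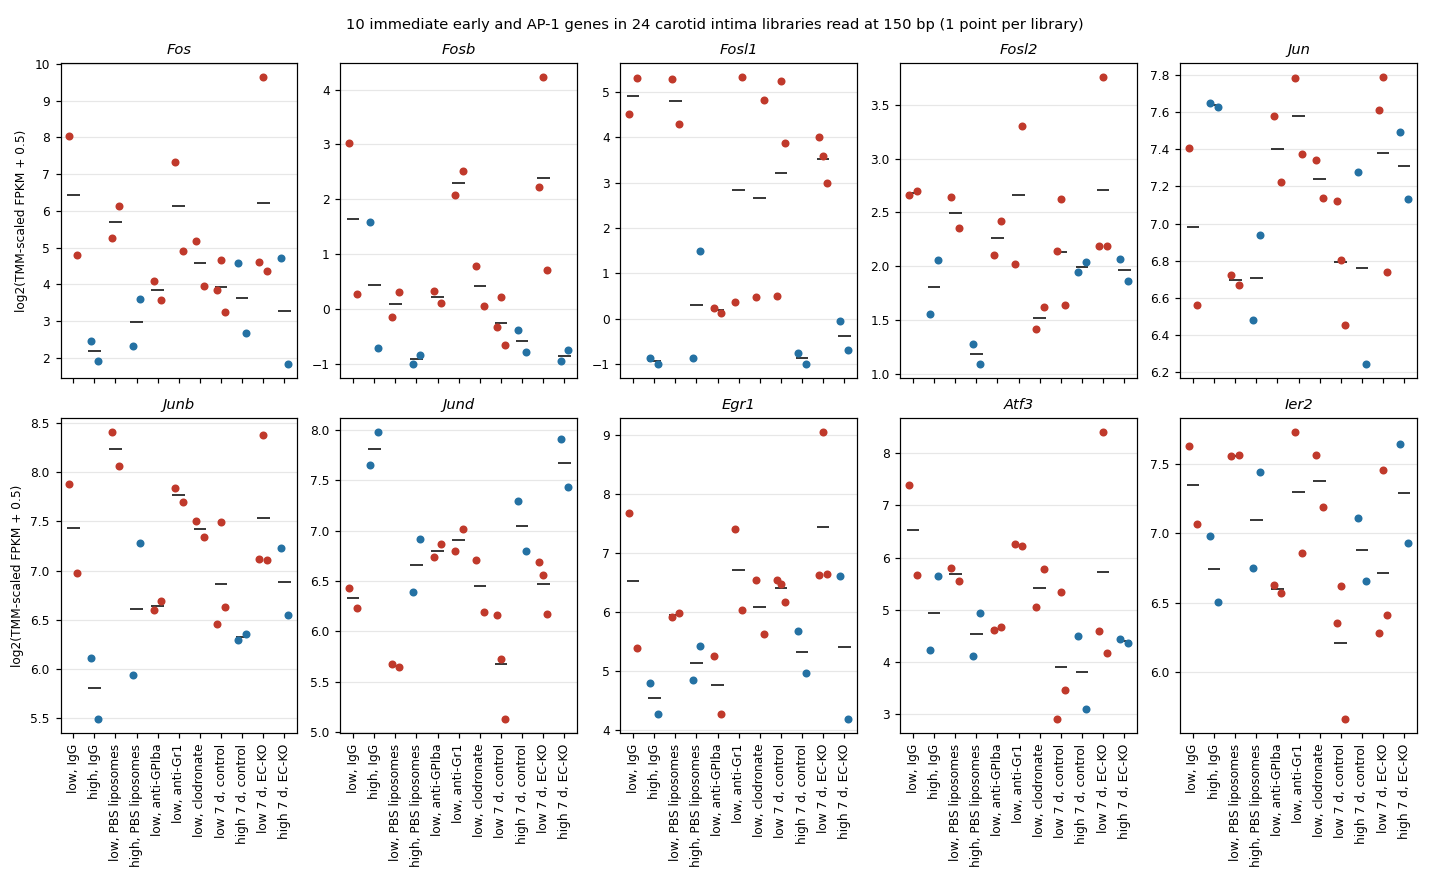
Levels of the 10 genes in the 24 carotid intima libraries read at 150 bp, as log2(TMM-scaled FPKM + 0.5), scaled within the 48 hr and the 7 d set; each point is 1 library (red low flow, blue high flow), the bar is the group mean, and each panel has its own axis. Jund is lower in every low-flow library than in every high-flow library of the same arm, and Fosl1 splits the anti-Gr1, clodronate and 7 d control low-flow groups into 1 low library and the rest.

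Fos and Atf3 were lower at low flow after platelet depletion. With anti-GPIba against IgG, 2 of 10 members passed, both lower, beside 16.5% of all genes (6.05% higher, 10.5% lower). Fos was at 16.4 and 11.5 FPKM with anti-GPIba and at 263 and 27.2 FPKM with IgG (log2 fold change -3.38 ± 1.02, adjusted p = 0.0444). Atf3 was at 23.9 and 24.9 FPKM against 168 and 50.2 FPKM (-2.16 ± 0.57, adjusted p = 0.0334). Both depleted libraries lay below both controls. Without IgG replicate 1 the changes were -0.96 and -1.03 (adjusted p = 0.455 and 0.191). Both calls were also lost without either depleted library (adjusted p = 0.193 and 0.197 for Fos, 0.180 and 0.142 for Atf3), and that of Fos without IgG replicate 2 (0.0636).

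The Fosl1 and Egr1 values also separated. Fosl1 was at 0.677 and 0.602 FPKM with anti-GPIba and at 22.3 and 39.1 FPKM with IgG, 37 counts against 1775, a ratio of 0.0203 (0.0142 to 0.0281, counting error only). The same libraries with reads trimmed to 100 bp gave 1.83 and 2.34 FPKM against 33.3 and 53.6 FPKM without TMM scaling, a smaller difference than with full reads, in the same direction. The 2 depleted libraries were alike and the fold change of -5.55 ± 1.86 had an adjusted p of 0.0597, while DESeq2, the fit without a count filter, the fit to the 2 groups alone and the fit with the replicate block each put it past the threshold. Leaving out IgG replicate 1 or 2 moved this fold change to -5.89 (adjusted p = 0.0873) or -5.09 (adjusted p = 0.235). Egr1 was at 37.9 and 18.9 FPKM against 204 and 41.3 FPKM (-2.11 ± 0.68, adjusted p = 0.0538, and -0.54 without IgG replicate 1), Junb at 96.6 and 103 FPKM against 236 and 126 FPKM, and Ier2 at 98.3 and 94.7 FPKM against 197 and 134 FPKM (adjusted p = 0.113), all without overlap. Jund was at 106 and 116 FPKM against 86 and 74.6 FPKM (adjusted p = 0.178). Macrophage marker sums were 239 to 360 with anti-GPIba against 2226 to 2373 with IgG, neutrophil sums 8.53 to 19.8 against 125 to 439, proliferation sums 2.41 to 3.75 against 160 to 267 and smooth muscle sums 422 to 596 against 2669 to 2853. Platelet sums were 16.4 to 31.8 against 42.7 to 48.3. Other sums were higher with anti-GPIba: endothelial 3626 to 3662 against 2040 to 2218, fibroblast 247 to 506 against 96.4 to 121 and erythroid 2335 to 2745 against 978 to 1733. Their part in the member differences was not tested.

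Anti-Gr1 against IgG called none of the members and no gene at all (0%), with 1 member and 2432 genes at an unadjusted p under 0.05 and 142 genes by DESeq2. The neutrophil marker sum was 22.9 to 45.7, against 125 to 439 with IgG, the macrophage sum 1256 to 1337 against 2226 to 2373 and the proliferation sum 12.5 to 18.8 against 160 to 267. Fos was at 160.3 and 29.6 FPKM and Egr1 at 169.6 and 64.9 FPKM, all within the range of the IgG controls (27.2 to 263 and 41.3 to 204 FPKM). Fosl1 was at 0.801 FPKM in replicate 1, the library with the higher Fos, and at 39.3 FPKM in replicate 2. The proliferation sum did not follow Fosl1 here, at 18.8 in replicate 1 and 12.5 in replicate 2, while the smooth muscle sum was 1095 and 3778. Jund was at 111 and 129 FPKM, above both IgG libraries (log2 fold change 0.58 ± 0.24, adjusted p = 0.258).

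Clodronate against PBS liposomes called none of the members and 16 genes (0.119%), with 2 members at an unadjusted p under 0.05. Fosl2 was at 2.18 and 2.57 FPKM against 5.73 and 4.62 FPKM (-1.12 ± 0.40, adjusted p = 0.265) and Jund at 104 and 72.6 FPKM against 50.5 and 49.7 FPKM (0.82 ± 0.24, adjusted p = 0.214), both without overlap. DESeq2 called Jund. Fosl1 was again unlike between replicates, at 0.905 and 27.7 FPKM against 38.4 and 19.1 FPKM, and the proliferation marker sum of the same 2 clodronate libraries was 6.99 and 254. In the PBS liposome libraries it was 33.8 and 254, with the higher Fosl1 in the library with the lower sum. Their macrophage sums were alike, 268.6 and 269, against 1380 to 2238 with PBS liposomes.

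At 7 d Fosl1 was higher at low flow in control mice. Of 10 members, 1 passed, higher (Fosl1), beside 2.4% of all genes (0.959% higher, 1.44% lower). Fosl1 was at 0.913, 37 and 14.2 FPKM in low-flow replicates 1, 4 and 5 and at 0.0917 and 0.00541 FPKM in high-flow replicates 4 and 5. All low-flow libraries lay above high flow, with replicate 1 far below the other low-flow libraries. In counts this was 1068 against 2, a ratio of 320.9 (88.6 to 2653), and the fitted log2 fold change was 8.30 ± 1.77 (n = 3 and 2, adjusted p = 0.0443). The call was lost under 5 of 12 settings, those without low-flow replicate 4 or 5, without high-flow replicate 4 or 5, and with the 2 groups alone. Low-flow replicate 1 came from an earlier run and replicate 5 from a later run than the other 3 libraries, and with replicates 4 and 5 only, a setting chosen after seeing the data, Fosl1 and Jund passed. The proliferation sum was 25.4, 329 and 384 in low-flow replicates 1, 4 and 5, lowest where Fosl1 was lowest, and 6.74 to 7.14 in high flow. The macrophage sum was 317 to 1456 in low flow against 74.4 to 147 in high flow and the smooth muscle sum 720.5 to 1081 against 149.8 to 191. In EC-KO these sums were 31.4 to 123 against 12 to 48.9 for proliferation, 920.2 to 1642 against 102 to 118 for macrophages and 639 to 1023 against 136 to 159 for smooth muscle. Endothelial sums were lower at low flow, with and without TMM scaling. Unscaled, they were 2045 to 3398 against 4455 to 4484 in control and 2641 to 3086 against 4678 to 4781 in EC-KO. Their part in the flow differences at 7 d was not tested.

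Jund was at 71.4, 52.5 and 34.6 FPKM in low flow and at 156 and 111 FPKM in high flow in controls. In EC-KO it was at 102, 93.6 and 71.9 FPKM against 241 and 172 FPKM. Low flow was lower without overlap in both genotypes. The log2 fold changes were -1.34 ± 0.31 (adjusted p = 0.0522) and -1.21 ± 0.31 (adjusted p = 0.108), and their difference, the interaction of flow and genotype, had an adjusted p of 0.994. Jund was thus lower at low flow in all 5 arms in which both flows were measured, passing in 3 of them. The median fold change of the tenth of genes highest in GC was -0.19 in control and -0.37 in EC-KO at 7 d.

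Junb was at 87.6, 180.0 and 98.7 FPKM in low-flow controls against 78.1 and 81.2 FPKM, Egr1 at 93.1, 89.1 and 71.9 FPKM against 51.1 and 30.8 FPKM, and Ier2 at 81.2, 97.8 and 50.4 FPKM against 137 and 101 FPKM. These 3 genes did not overlap between flows, Ier2 only with TMM scaling, and none passed (adjusted p = 0.425, 0.457 and 0.357). Fos, at 13.7, 24.9 and 9.05 FPKM against 23.2 and 5.82 FPKM, overlapped and had an adjusted p of 0.969.

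In EC-KO low flow, 1 library stood apart in the immediate early genes. Fos was at 24, 796 and 20.1 FPKM in replicates 1, 4 and 5, Egr1 at 99, 531 and 99.5 FPKM, and Atf3 at 23.8, 338 and 17.6 FPKM. Replicate 4 was highest in each, by 5 times or more. Fosb was at 4.15, 18.2 and 1.13 FPKM, Junb at 138, 333 and 138 FPKM, Fosl2 at 4.07, 13 and 4.06 FPKM, and Ier2 at 77.3, 175 and 84.8 FPKM, each with replicate 4 on top. Fosl1, at 15.5, 11.4 and 7.43 FPKM, and Jund did not share this. Replicate 4 also had a fibroblast marker sum of 1621, against 500.3 and 487 in replicates 1 and 5 and 130.1 to 439 in the low-flow controls. The 3 EC-KO libraries come from 3 different runs, and the part of fibroblast RNA or of run in these levels was not tested.

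**Figure D3:**
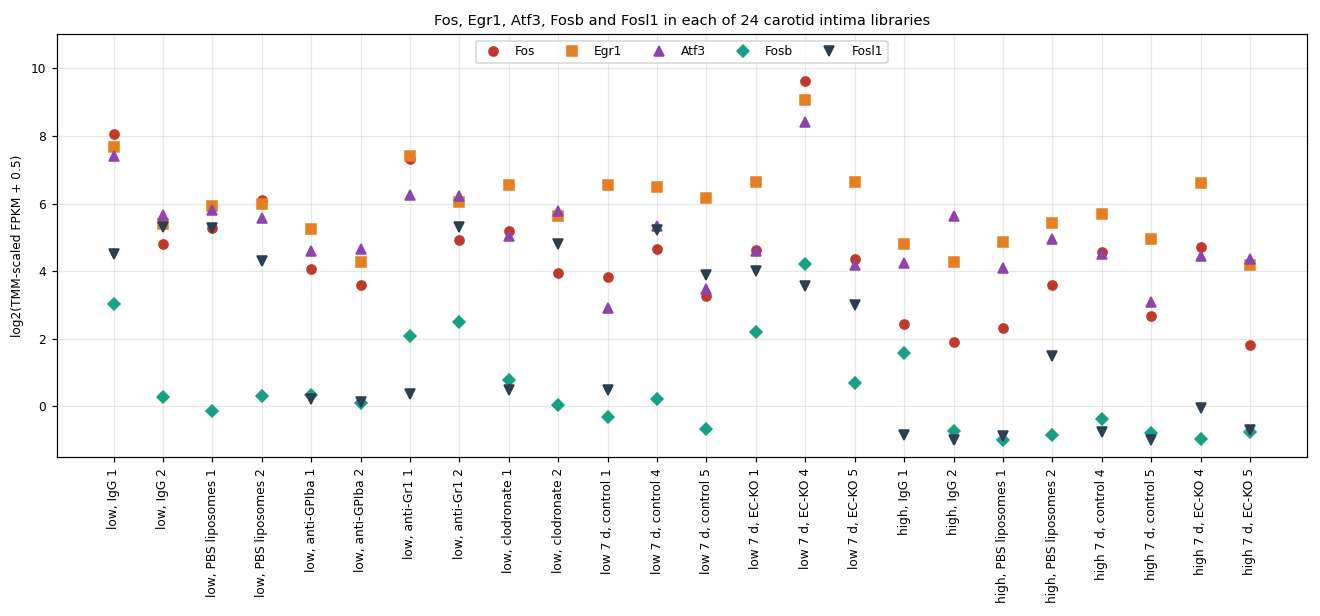
Fos, Egr1, Atf3, Fosb and Fosl1 in each of the 24 carotid intima libraries read at 150 bp, as log2(TMM-scaled FPKM + 0.5), scaled within the 48 hr and the 7 d set; each column is 1 library, low flow to the left and high flow to the right. Fos, Egr1 and Atf3 peak together in low-flow EC-KO replicate 4, while Fosl1 there lies near the level of the other low-flow EC-KO libraries.

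EC-KO against control at low flow called none of the members, nor any gene (0%). The unadjusted p was below 0.05 for 4 members and 880 genes, and 11 genes passed by DESeq2, Fosb among them. Fosb was at 4.15, 18.2 and 1.13 FPKM in EC-KO and at 0.3, 0.662 and 0.134 FPKM in control, without overlap. The log2 fold change was 4.39 ± 1.08 (adjusted p = 0.692), and it was 2.84 (adjusted p = 0.936) without EC-KO replicate 4. Fos differed by 4.13 ± 1.44, Atf3 by 2.71 ± 1.11 and Jund by 0.76 ± 0.29 (adjusted p = 0.692 each). Without EC-KO replicate 4 these were 0.47, 0.10 and 0.72. Egr1, at 99, 531 and 99.5 FPKM in EC-KO against 93.1, 89.1 and 71.9 FPKM, was higher without overlap and had the same adjusted p of 0.692.

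At high flow, EC-KO against control called none of the members and 1 gene of 13352 (0.00749%), with 0 members at an unadjusted p under 0.05. Fosl1 was at 0.463 and 0.119 FPKM against 0.0917 and 0.00541 FPKM, 15 counts against 2. Junb was at 149 and 93 FPKM against 78.1 and 81.2 FPKM. Both were higher without overlap, with an adjusted p of 1. EC-KO replicate 4, the higher of its group in both genes, had a sum of T, B and dendritic cell markers of 105, against 12.7 in replicate 5 and 0.978 to 4.84 in controls, and a proliferation sum of 48.9 against 12 and 6.74 to 7.14, whose part was not tested.

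Between low and high flow in EC-KO, 0 of 10 members passed, beside 1.09% of all genes (0.352% higher, 0.741% lower), with 5 members at an unadjusted p under 0.05. DESeq2 called Fosb, Fosl1 and Jund. Fosb was at 4.15, 18.2 and 1.13 FPKM against 0.0171 and 0.0947 FPKM (log2 fold change 7.05 ± 1.51, adjusted p = 0.0624), or 1134 counts against 7. Fosl1 was at 15.5, 11.4 and 7.43 FPKM against 0.463 and 0.119 FPKM (5.28 ± 1.42, adjusted p = 0.117). Fos differed by 4.27 ± 1.73 (adjusted p = 0.274), and by 0.61 without EC-KO replicate 4. The interaction of flow and genotype called no member and no gene (0%), with 1 member and 538 genes at an unadjusted p under 0.05 and 19 genes by DESeq2. The largest member value was that of Fosb, 5.99 ± 1.78 (adjusted p = 0.986), and the flow responses of the 2 genotypes were not shown to differ.

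**Figure D4:**
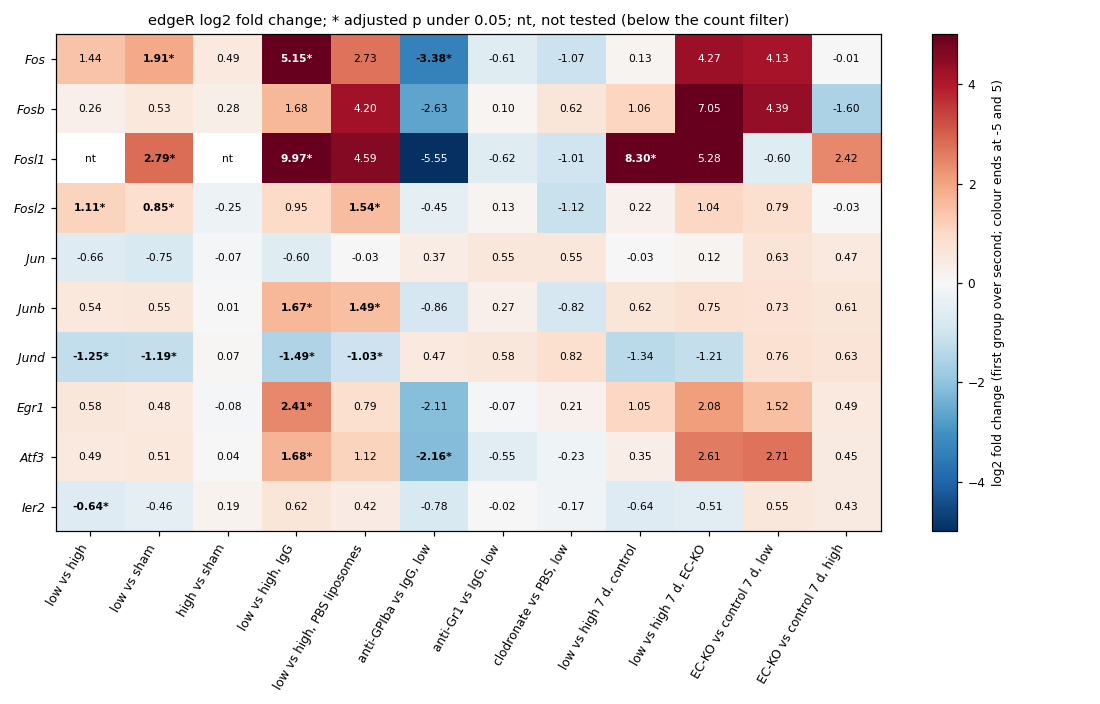
edgeR log2 fold change of each of the 10 genes (rows) in 12 comparisons (columns, first group over second); an asterisk and bold mark an adjusted p under 0.05, nt marks a gene below the count filter, and the colour scale ends at -5 and 5. Jund is negative in every column of low against high flow, and the calls fall mainly in the 48 hr flow columns.

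The 48 hr comparisons with IgG low flow share those libraries, as do the 7 d comparisons, so that their values for a gene are not independent. Side by side, Fos changed by 5.15 with low flow and by -3.38 with anti-GPIba, and low-flow IgG replicate 1 stands in the first group of the former and in the reference group of the latter.

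Genes that varied most like Fos were looked up over all 35 carotid intima libraries, as Pearson's r of log2(FPKM + 0.5) among 11365 genes with a mean of at least 1 FPKM. FPKM was not TMM-scaled here, and the 35 libraries mix sets whose levels are not comparable. The 5 most alike were Egr2 (r = 0.90), Apold1 (0.82), Arc (0.79), Atf3 (0.79) and Trex1 (0.79). Egr2 and Arc are themselves immediate early genes, and Apold1 is an early gene of vascular endothelium. Over the 24 libraries read at 150 bp only, a restriction chosen after seeing the data, they were Egr2 (0.91), Egr1 (0.88), Apold1 (0.88), Junb (0.83) and Socs3 (0.81). The genes most like Fosl1 were others, Hbegf (0.95), Cars (0.93), Cndp2 (0.93), Tsr1 (0.92) and Shmt2 (0.92) over all 35 libraries. Hbegf is a growth factor of the EGF family, Cars charges tRNA, and Shmt2 feeds folate metabolism. Over the 24 libraries they were G3bp1 (0.96), Ccrn4l (0.96), Opa3 (0.95), Efhd2 (0.95) and Eif4a1 (0.95). Fos ranked 3240 of 11364 for likeness to Fosl1 there (r = 0.49), and Jund ranked 10046 (r = -0.67), the most unlike of the members. The libraries share runs, depth and cell makeup, and these are descriptions.

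Textbook target genes of AP-1 were mostly higher at low flow at 48 hr. Of 13 tested in untreated arteries, 11 rose and 1 fell at low against high flow, with a median log2 fold change of 2.46, beside 46.2% of all genes called. Spp1 (osteopontin) went from 0 to 2.20 FPKM in high flow to 49.8 to 66.9 FPKM in low flow, and Mmp9 (gelatinase B) from 0 to 0.139 FPKM to 2.24 to 8.65 FPKM. Mt1, a metallothionein, fell (-2.44 ± 0.24). Against sham 10 of 14 rose and 1 fell, under IgG 12 of 15 rose, and under PBS liposomes 12 of 15 rose, with none lower in the 2 treated arms, beside 40.3%, 40.5% and 35% of all genes called. With anti-GPIba 8 of 15 were lower and none higher, beside 10.5% and 6.05% of all genes, with a median of -2.96 against -0.04 over all genes. None was called with anti-Gr1, with clodronate or between genotypes at 7 d. In 7 d control none of 15 passed, beside 2.4% of all genes, with a median flow response of 2.56, and in EC-KO 1 passed, beside 1.09% of all genes, the collagenase Mmp13, at 6.29 to 15.2 FPKM in low flow and listed at 0 in both high-flow libraries. Several of these genes are made by macrophages and smooth muscle cells, whose markers moved in the same comparisons. The part of cell makeup in these changes was not tested.

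Among 31 other immediate early genes, 6 rose and 2 fell of 24 tested between untreated low and high flow, a smaller share than the 46.2% of all genes. Ctgf, a matrix regulator, rose from 5.10 to 10.8 FPKM in high flow to 51.4 to 185 FPKM in low flow (adjusted p = 7.31e-05). On the log2 scale, the growth regulator Myc rose by 3.32 ± 0.31 and the growth arrest gene Gadd45a by 3.02 ± 0.24, while Klf10 fell by 1.74 and Zfp36l1 fell by 0.75. Under IgG 12 rose and 5 fell of 31, and under PBS liposomes 11 rose and 1 fell, beside 40.5% and 35% of all genes. With anti-GPIba, Egr2 (-4.28 ± 0.78), Nr4a1 (-3.47 ± 0.79) and Arc (-3.22 ± 0.85) were among 5 lower genes of 31 tested, with Plk2 (1.88 ± 0.49) the only higher one, beside 10.5% and 6.05% of all genes. At 7 d, Ctgf and Gadd45a rose at low flow in both genotypes, in control by 3.86 ± 0.59 and 2.16 ± 0.46 and in EC-KO by 4.48 ± 0.61 and 2.89 ± 0.47. Gadd45b rose in EC-KO as well (2.40 ± 0.39), and Zfp36l1 fell in control (-1.71 ± 0.33).

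Of the other bZIP factors, 4 rose and 5 fell of 16 in untreated low against high flow, near the 46.2% of all genes. Batf3, a dendritic cell factor, rose by 6.11 ± 0.73, and the stress factor Ddit3 fell by 1.57. Under IgG 4 rose and 2 fell of 19, and under PBS liposomes 7 rose and 1 fell, beside 40.5% and 35% of all genes. Cebpb, the factor of the acute phase and of macrophage activation, went from 5.21 to 12.2 FPKM in high flow to 136 to 233 FPKM in low flow under IgG, and was lower with anti-GPIba (-3.28 ± 0.49) and with clodronate (-3.30 ± 0.49). Outside the 10 members, it was the only bZIP factor of the list called in each of those 2 depletions.

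Enzymes that switch MAP kinases off were called in both directions. Of 8 tested MAP kinase phosphatases, Dusp6, which acts on ERK, rose in untreated low flow (1.85 ± 0.29), while Dusp1 (-1.76 ± 0.21) and Dusp8 (-2.98 ± 0.73), which act on p38 and JNK, fell, beside 46.2% of all genes called. Dusp8 was lower at low flow in every arm, by 3.60 ± 0.52 on the log2 scale under IgG and 2.09 ± 0.51 under PBS liposomes, and at 7 d by 2.78 ± 0.52 in control and 3.14 ± 0.52 in EC-KO. With anti-GPIba, Dusp5, Dusp2 and Dusp6 were lower of 11 phosphatases tested and none was higher, beside the same 10.5% and 6.05% of all genes. The MAP kinases and SRF cofactors upstream were also called in both directions: 2 of 17 kinases rose and 2 fell in untreated low against high flow, 1 rose and 5 fell under IgG, and 1 rose and 4 fell under PBS liposomes. These were smaller shares than the 46.2%, 40.5% and 35% of all genes called. Of 7 SRF and ternary complex factors, 3 rose and 1 fell in untreated arteries, with the cofactor Fhl2 at 3.10 to 7.83 FPKM in low flow and 0 to 0.292 FPKM in high flow, and 0 rose and 2 fell under IgG, beside 46.2% and 40.5% of all genes.

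Cultured endothelial cells were measured with 1 library per condition and therefore without a test. Intervals given cover counting error only. The TetOn-SV40 line expressed endothelial markers weakly, with a sum of 145 to 167 FPKM against 1455 to 2508 FPKM in the primary cells. Smooth muscle markers summed to 2768 FPKM in primary EC-KO, 3480.2 FPKM in primary control and 1648 FPKM in primary eGFP+ cells, above the endothelial sum of the same library in each, and their part in the primary levels was not tested. The line was kept for 48 hr without additions, with 10% plasma, with platelets and bone marrow-derived monocytes (labelled macrophages), or with all of these.

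Fosl1 was at 2.61 FPKM in the untreated line, at 6.88 FPKM with platelets and macrophages, at 10.2 FPKM with plasma and at 38.8 FPKM with all. The ratios to the untreated library were 2.63 (1.94 to 3.60), 3.88 (2.91 to 5.25) and 14.8 (11.4 to 19.5). Junb was at 77.3, 122, 64.8 and 178 FPKM in the same order, and the ratio of the full mix to untreated was 2.30 (2.18 to 2.43). Jund varied less, at 155, 127, 120.4 and 147 FPKM. Egr1 was lowest with all additions, at 40.5 FPKM against 71.9 in the untreated line (ratio 0.562, 0.531 to 0.595), and so was Atf3, at 2.66 FPKM against 6.7 untreated and 18.7 with plasma. Fos stayed between 4.88 and 8.55 FPKM and Jun between 15.9 and 22.7 FPKM. Fosl2 was at 15.7 FPKM untreated, 4.85 FPKM with plasma and 11.8 FPKM with all. Macrophage markers summed to 28.4 FPKM in the untreated line, 399.8 with platelets and macrophages, 53.7 with plasma and 274 with all, and the part of RNA from added cells in these levels was not tested.

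**Figure D5:**
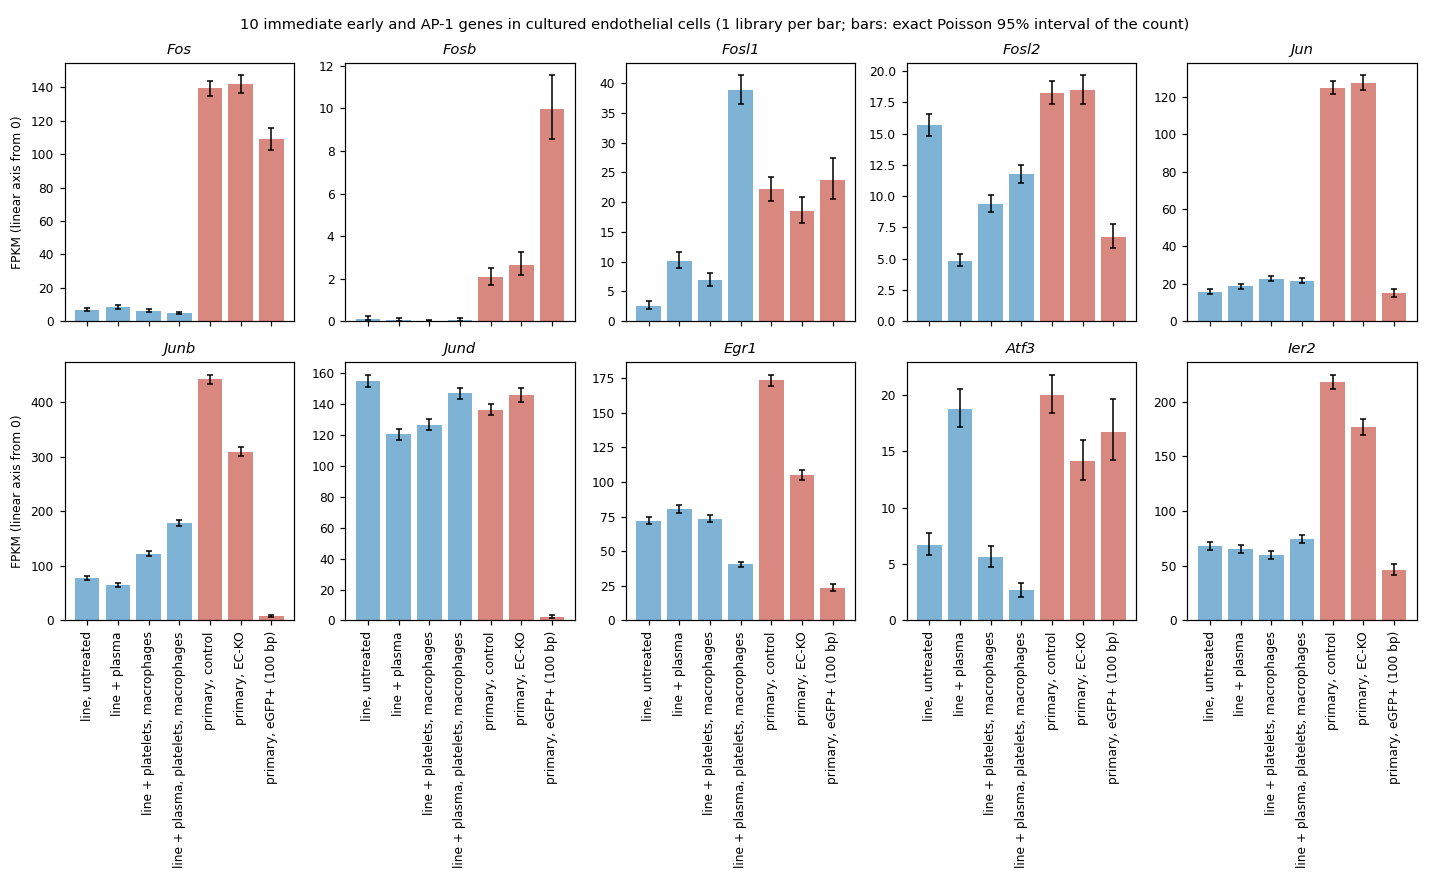
FPKM of the 10 genes in the 4 cell line libraries (blue) and 3 primary cell libraries (red) on linear axes from 0; each bar is 1 library and the error bars are exact Poisson 95% intervals of its count. Fosl1 is at 2.61 FPKM in the untreated line and 38.8 FPKM with plasma, platelets and macrophages, and Fos and Egr1 are higher in the primary control library than in any of the line.

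Primary aortic cells expressed more of most members than the line. In the control library Fos was at 139 FPKM, Jun at 125, Junb at 442, Egr1 at 174 and Ier2 at 218 FPKM, against line maxima of 8.55, 22.7, 178, 80.4 and 74.1 FPKM. The EC-KO library, with Rbfox2 at 0.675 FPKM against 9.33 in control, differed little in Fos (ratio 1.02, 0.968 to 1.07), Jun (1.02, 0.979 to 1.06) and Fosl2 (1.01, 0.936 to 1.10). It was lower in Egr1 (0.605, 0.580 to 0.631), Junb (0.700, 0.677 to 0.724), Atf3 (0.705, 0.605 to 0.820), Ier2 (0.810, 0.770 to 0.851) and Fosl1 (0.836, 0.721 to 0.969) and slightly higher in Jund (1.07, 1.03 to 1.12). The macrophage marker sum was 52.1 FPKM in EC-KO and 397 FPKM in control. The primary eGFP+ library, read at 100 bp, had Fos at 109 FPKM and Fosb at 9.99 FPKM beside Junb at 8.07 and Jund at 2.35 FPKM, and its levels were not set against the other cultures.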

How the data were processed

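RNA was sequenced from flushed carotid intima and cultured aortic endothelial cells. The authors mapped reads and estimated genes with RSEM 1.2.15 and STAR 2.5.1b on mm9, as their processing notes list them (the methods also name TopHat for the untreated pools), and deposited expected counts, which are not normalized. They also deposited RPKM for some libraries, used here only as an alternative. The scripts read 59 of the table's 204 value columns and left 145 aside, repeat sequencing runs among them. The table held 21675 entries, of which 1 without a name was left out. Expected counts, of which 5.2% to 19.32% were not whole, were rounded. FPKM was computed from counts and the deposited effective length, and divided by the TMM factor of the set.

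Each comparison was tested with edgeR 4.0.16 (R 4.3.3; filterByExpr, TMM, glmQLFit, glmQLFTest) and Benjamini-Hochberg adjustment over all genes tested, with a threshold of 0.05. Untreated pools were fitted 2 groups at a time, and the 14 depletion and 10 libraries of 7 d each in 1 fit with a shared estimate of spread. The scripts were tested on simulated data. DESeq2 1.42.0, RLE, no filter, leaving out each library, the replicate number as a block and the other settings of the closing section were tried. Replicates are libraries; where the labels name no animals, p-values measure only the spread between these libraries. Intervals are exact, 2-sided 95% intervals of counting error. Beside them, a floor of 3 counts is kept for a count of 0, which is lower than the upper bound of such an interval. No 2 libraries held identical values (0 pairs).

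Named genes were the 10 members; from each pathway list and comparison up to 3 higher and 3 lower genes with the largest fold change among those called without overlap; and the 5 genes most like Fos and Fosl1. A gene that this rule names among the AP-1 targets is not reported here. Members, lists and tests were chosen with earlier results of these data known. The 2 liposome libraries read at 100 bp entered no test.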

Additional observations from a re-analysis of the deposited data

Results flagged for a closer look

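Ier2 did not keep its direction between flow comparisons. It was higher in both low-flow libraries than in both high-flow libraries under IgG (log2 fold change 0.62) and under PBS liposomes (0.42), and lower without overlap in untreated arteries against high flow (-0.64), against sham (-0.46) and in 7 d control mice (-0.64). Under PBS liposomes and in 7 d control mice, the groups overlapped without TMM scaling. In the IgG and PBS liposome arms, run and flow cannot be told apart. Only the untreated difference from high flow passed the test, and the difference between comparisons was not tested.

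The 2 low-flow libraries read at 100 bp after liposomes, 1 per treatment, entered no comparison. Several members lay above every untreated high-flow and sham pool in them, in unscaled FPKM. With PBS liposomes these were Fos (23.7), Fosl1 (14.3), Fosl2 (13.7), Junb (11.2), Egr1 (20.1), Atf3 (24.1) and Ier2 (41.3). With clodronate they were Fosl1 (15.6), Fosl2 (6.26), Junb (8.97), Egr1 (16) and Ier2 (35.8). Apart from Fos and Atf3, the members listed here also lay above every untreated low-flow pool. Treated mice are set against untreated mice here, and the share of all genes above those pools was not counted. Fos was at 9.13 FPKM with clodronate, a ratio of 0.386 to PBS liposomes (95% interval 0.304 to 0.487, counting error only).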

How the results depend on the processing

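Over the 44 member fold changes with an unadjusted p under 0.05, of which 19 passed the test, 483 alternative values kept their direction (0 reversed): 380 stayed on the same side of the threshold, 49 lost it and 54 gained it. The sign changes of Fosb, Junb and Egr1 with library totals lie outside these 44. The count of members called was least stable with 2 libraries per group. Leaving out 1 library gave 3 to 4 members in untreated low against high flow (3 as reported), 2 to 3 against sham (4), 3 to 6 under IgG (6), 1 to 2 under PBS liposomes (3), 0 to 1 with anti-GPIba (2), 0 to 1 with clodronate (0), 0 to 2 in 7 d control (1), 0 to 1 between genotypes at low flow (0) and 0 in EC-KO (0). DESeq2 gave 6 under PBS liposomes, 4 with anti-GPIba, 1 with clodronate, 2 in 7 d control, 1 between genotypes at low flow and 3 in EC-KO. No count filter gave 6 in untreated low against high flow, 6 under PBS liposomes, 4 with anti-GPIba, 2 in 7 d control and 1 in EC-KO. The 2 groups alone gave 6, 4, 0 and 3 under PBS liposomes, with anti-GPIba, in 7 d control and in EC-KO, and the 7 d libraries numbered 4 and 5 alone gave 2 in control and 3 in EC-KO. The cause of these moves was not tested. The replicate block gave 5 under PBS liposomes, 4 with anti-GPIba, 2 in 7 d control and 5 in EC-KO. Some same-numbered groups deviated together and others did not: the correlation was 0.448 between flows under PBS liposomes, 0.476 between clodronate and PBS liposomes, 0.00972 between flows under IgG and -0.0463 between anti-GPIba and IgG (-0.155 to 0.514 over 21 pairs at 48 hr), and -0.00203 to 0.222 over 6 pairs at 7 d. The labels tie the numbers to no animal, litter or day, and they were not taken to pair the libraries. No paired analysis was possible for the untreated pools because their columns carry letters. The second sequencing run of the untreated pools, and the sum of both runs, were planned but are not reported, since with them a group had more columns than samples. In a trial before they were set aside, the Ier2 call against high flow was lost with either, and the Jund call against sham with the second run. In culture, deposited RPKM had a median of 22.5 over 70 levels against 21.9 FPKM, with 31 outside the counting interval. Fosl1 and Fosb are limited by depth in high flow, where whole groups held 1 to 53 and 3 to 115 counts. Jund is limited by few counts per pool in the untreated set.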
